A study of Mus musculus with 8 samples.

Results

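Transcripts of the enzymes and transporters of glycolysis and the pentose phosphate pathway were followed in RAW264.7 cells, a mouse macrophage-like line transformed with Abelson leukaemia virus. The members were chosen by name, with earlier results of these data known. They are 33 listed genes that carry glucose from uptake to lactate export, run either branch of the pentose phosphate pathway (oxidative or non-oxidative), or link glucose 6-phosphate to glycogen. Of these, 32 stood in the table of 10639 genes: 23 of glycolysis and lactate export, 7 of the pentose phosphate pathway and 2 phosphoglucomutases. Ldhb, a lactate dehydrogenase subunit, was not analysed here. Bulk RNA sequencing gave 8 libraries of cells labelled wild type, in 4 groups of 2. One group was untreated. One received lipopolysaccharide (LPS, the bacterial outer membrane glycolipid sensed by Toll-like receptor 4) at 50 ng/mL for 12 h. One received antibodies to CD36, a scavenger receptor and fatty acid carrier of the macrophage surface, at a dilution of 1 in 100 for 12 h. The last received both for 12 h, with no dose in its label. No group with a control antibody of another specificity was analysed here. The labels do not state that replicates came from separate cultures, so the p-values speak only to variation among these libraries, part of which may be technical.

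Glycolysis splits glucose into pyruvate, with net gain of ATP, and lactate dehydrogenase then turns pyruvate into lactate, which leaves the cell through a monocarboxylate transporter. The pentose phosphate pathway branches off at glucose 6-phosphate; its oxidative branch makes NADPH, and its non-oxidative branch interconverts sugar phosphates and supplies ribose 5-phosphate for nucleotides. Macrophages activated by LPS are known for a raised use of glucose, and NADPH feeds both their oxidant production and their defence against it. Many glycolytic genes are known targets of the hypoxia-inducible factor HIF-1.

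Values are FPKM, fragments per kilobase of transcript scaled to the reads of the library. The length is that of all annotated exons of a gene together (the union exon length), which can exceed that of its transcript. Levels and ranks between genes therefore depend in part on annotation, whereas a gene's ratio between groups does not. Read totals recovered from the values ran from 47909121 to 71705258 per library, and each member had between 197 (Pfkfb2) and 594197 (Pkm) reads in a library. Groups were compared with limma on log2(FPKM + 1). Below, a gene called, risen or fallen is one whose p, adjusted by Benjamini and Hochberg's method over the 10289 tested genes, was under 0.05. All 32 members passed the filter on low values (FPKM reaching 1 in 2 or more libraries). The anti-CD36 libraries differed more from each other than those of other groups did: over genes, their log2 values differed with an SD of 0.451, against 0.137 to 0.22. The first of them gave 15.7% of its summed FPKM to 13 mitochondrial genes, against 3.28% to 6.62% in the other 7 libraries. Of 10 macrophage markers, 9 stood in the table, with summed FPKM of 3634 to 5406. The sum hides single markers: with LPS 4 rose and 2 fell, beside 17.0% and 37.5% of all tested genes. Adgre1 went from a mean of 13.0 untreated to 83.4 with LPS, and Csf1r from 308 to 103. Lck (T and NK cells, FPKM 1.72 to 4.32), Cd79b (B cells, 0.0292 to 1.46) and Csf3r (granulocytes, 2.97 to 4.92) were the only other lineage markers in the table. Lck and Cd79b were higher in every library with LPS than in every library without, and their part in the results was not tested. In bulk RNA, fewer cells of a type and less RNA per cell cannot be told apart.

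The stretch upstream of a gene's start is where many of its control elements lie. RefSeq (GRCm38.p6) windows of the 250 bases before each annotated start were searched on both strands for ACGTG. This core is found in some HIF-1 sites and in E-boxes bound by MYC-type factors. HIF-1 sites with another first base in the core were not searched for, so a window without ACGTG may still hold one. CACGTG holds ACGTG on both strands and counts as 2 matches. At least 1 window held ACGTG in 14 of the 33 listed genes (42.4%), against 18.5% of 27025 genes, and CACGTG stood in 4 (12.1%) against 6.86%. Counted by window, ACGTG stood in 37.5% of the 48 listed windows and in 16.6% of 32851, and CACGTG in 8.33% and 6.02%. None of the windows of the 7 pentose phosphate genes held ACGTG, which are too few genes to set against 18.5%. A match describes the letters in the window and shows no binding. The windows below are those of the glycolytic gene with the most matches (Ldha, chr7:46845554-46845803, plus strand), of Pgk1 (chrX:106186850-106187099, plus strand), of the 3 members called between LPS with and without the antibodies (Pfkfb3, chr2:11502091-11502340, minus strand; Pgm1, chr4:99929201-99929450, plus strand; and Pfkp, chr13:6648772-6649021, minus strand, which holds no ACGTG), and of a pentose phosphate gene with none (Tkt, chr14:30548881-30549130, plus strand). Each reads 5′ to 3′ and capitals mark ACGTG on either strand.
Ldha: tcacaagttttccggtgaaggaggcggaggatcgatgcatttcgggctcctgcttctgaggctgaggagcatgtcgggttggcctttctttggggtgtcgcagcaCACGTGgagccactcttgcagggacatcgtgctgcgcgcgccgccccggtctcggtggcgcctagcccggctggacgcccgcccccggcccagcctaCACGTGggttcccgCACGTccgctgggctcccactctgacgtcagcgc
Pgk1: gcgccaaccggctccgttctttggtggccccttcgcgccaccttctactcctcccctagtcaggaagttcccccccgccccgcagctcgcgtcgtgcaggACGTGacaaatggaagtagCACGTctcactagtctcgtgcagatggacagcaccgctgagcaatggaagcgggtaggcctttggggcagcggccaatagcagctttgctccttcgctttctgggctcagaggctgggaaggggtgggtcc
Pfkfb3: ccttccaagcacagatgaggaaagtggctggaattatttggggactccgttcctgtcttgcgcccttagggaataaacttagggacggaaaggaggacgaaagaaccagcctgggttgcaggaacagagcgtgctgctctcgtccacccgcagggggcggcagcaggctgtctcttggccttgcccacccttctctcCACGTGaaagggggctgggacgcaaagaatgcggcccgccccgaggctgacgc
Pgm1: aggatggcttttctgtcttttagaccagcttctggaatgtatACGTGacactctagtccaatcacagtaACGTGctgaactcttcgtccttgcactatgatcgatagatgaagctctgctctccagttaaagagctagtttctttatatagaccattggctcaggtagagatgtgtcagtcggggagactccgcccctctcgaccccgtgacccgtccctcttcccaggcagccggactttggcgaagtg
Pfkp: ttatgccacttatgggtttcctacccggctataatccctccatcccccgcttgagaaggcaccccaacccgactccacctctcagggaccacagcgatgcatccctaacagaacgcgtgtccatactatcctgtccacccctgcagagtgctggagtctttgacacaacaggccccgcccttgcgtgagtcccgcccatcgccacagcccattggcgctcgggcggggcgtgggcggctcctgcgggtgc
Tkt: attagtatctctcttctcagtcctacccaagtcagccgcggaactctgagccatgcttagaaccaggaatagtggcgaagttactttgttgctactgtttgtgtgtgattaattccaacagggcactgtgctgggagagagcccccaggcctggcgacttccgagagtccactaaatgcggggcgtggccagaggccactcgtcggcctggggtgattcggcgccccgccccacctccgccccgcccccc

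In untreated cells the members spanned 3 orders of size on the FPKM scale. The 8 most abundant over all libraries were Pkm, Pgk1, Ldha, Aldoa, Eno1, Pgam1, Tpi1 and Gapdh, which all act from aldolase downwards and made up 84.5% of the members' summed mean FPKM. The order by FPKM differed between groups. In untreated cells Pkm (mean 1679) stood first, then Ldha (1306) and Pgk1 (1055). With LPS Pgk1 (1387) stood first, then Ldha (948) and Pkm (945), which lay close together. In reads, which are not divided by length, Pkm stayed above Pgk1 in both LPS libraries (291611 and 299137 against 191906 and 197029). The hexokinases, phosphofructokinases and fructose 2,6-bisphosphate enzymes stood far lower: the means over the 8 libraries were 53.1 for Hk1 and 51.1 for Pfkp, and 12.3, 5.16 and 0.95 for Pfkfb3, Pfkfb4 and Pfkfb2. Among the pentose phosphate genes the untreated means of Tkt (109), Pgd (107), G6pdx (105) and Taldo1 (104) lay close together at the top, and that of Rpia (8.87) was lowest. Gapdh is uncertain, since 93 other genes carry stretches of at least 200 bases that match it at 95% identity or more, 14 of them in the table. Ldha (5 such genes), Pgk1 (4) and Eno1 (4, with Eno1b in the table) are uncertain to a lesser degree, and Pfkp, Rpe and Pgm1 share exon sequence with the overlapping genes Pitrm1, Kansl1l and Itgb3bp.

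**Figure D1:**
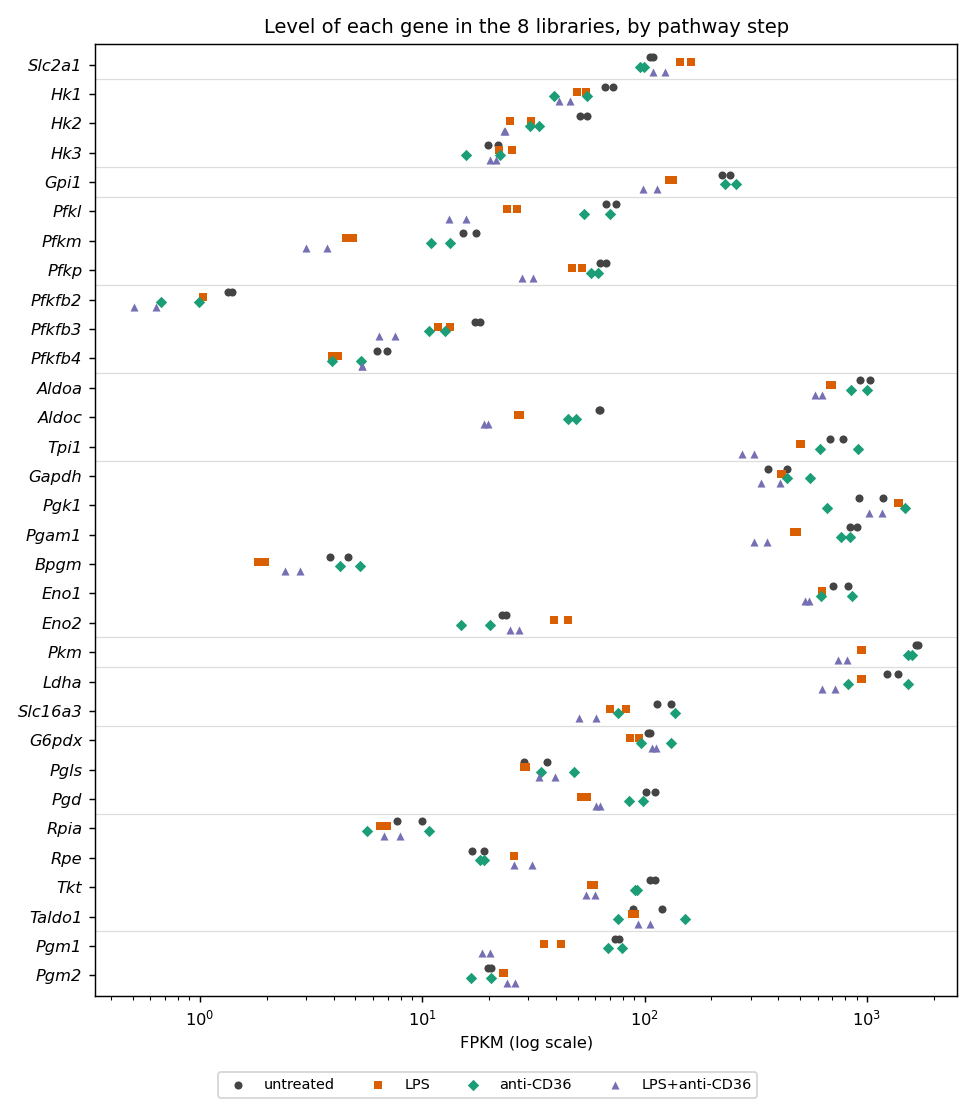
FPKM (log axis) of the 32 genes in each of the 8 libraries, ordered by pathway step from glucose uptake at the top to the phosphoglucomutases at the bottom; each point is 1 library and shapes mark the groups. Most genes from aldolase to lactate dehydrogenase lie to the right, other than Aldoc, Bpgm and Eno2, and the LPS and LPS+anti-CD36 points lie left of the untreated points for most glycolytic genes.

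With LPS, 15 of the 32 members fell against untreated cells and 3 rose (limma, adjusted p under 0.05). Among all tested genes, 37.5% fell and 17.0% rose. The genes that fell were Hk2, Gpi1, Pfkl, Pfkm, Pfkp, Pfkfb3, Pfkfb4, Aldoa, Aldoc, Pgam1, Bpgm and Pkm of glycolysis, Pgd and Tkt of the pentose phosphate pathway, and Pgm1. Slc2a1, Eno2 and Rpe rose. The median log2 difference of the members was -0.47, beside -0.19 over all tested genes. The summed FPKM of the members took 3.22% ± 0.14 (SD, n = 2) of the library in untreated cells and 2.14% ± 0.0595 with LPS. Scaling the libraries by median-ratio size factors moved the median of all genes from -0.19 to 0.0 and the members' median to -0.24; on that scale 12 members fell and 4 rose, Pgm2 being the added one, with 26.6% of all genes lower and 25.7% higher. No called member turned direction under any alternative, and 12 of the 18 calls held under every alternative that tested them (20, or 19 for Bpgm, which the filter on a mean FPKM of 5 left out). The other 6 were Slc2a1, Rpe, Pfkp, Pfkfb3, Pfkfb4 and Aldoa. In every called member the groups did not overlap, so only alternatives that rescale the libraries could have turned the direction.

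**Figure D2:**
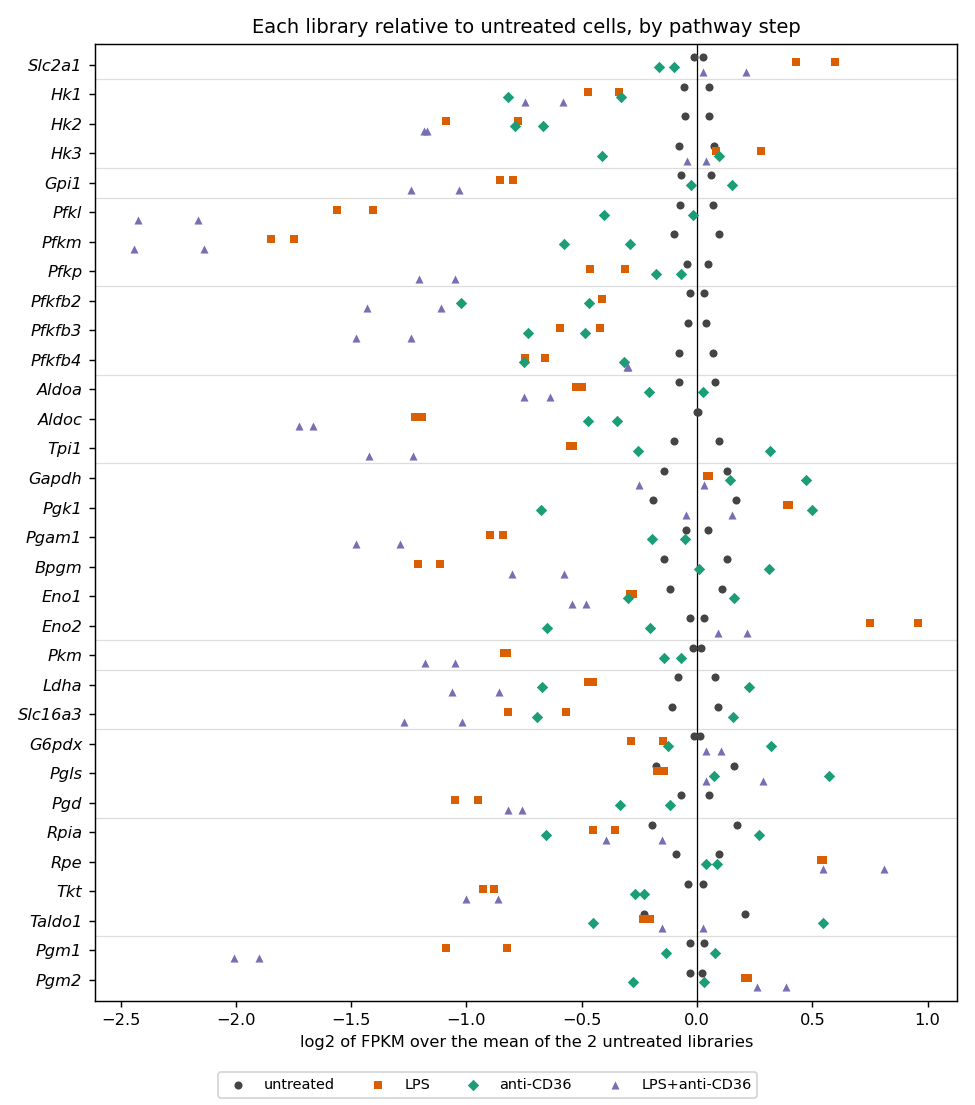
log2 of the FPKM of each library over the mean of the 2 untreated libraries, for the 32 genes by pathway step; each point is 1 library and the vertical line marks no difference. Slc2a1, Eno2 and Rpe have both LPS libraries to the right of the untreated ones; the LPS+anti-CD36 points of Pfkl, Pfkm and Pgm1 lie farthest to the left.

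At the entry of the pathway, the transporter Slc2a1 rose with LPS while the kinase Hk2 fell. Slc2a1 encodes GLUT1, the main glucose carrier of macrophages. Its FPKM was 106 and 109 without treatment, 144 and 162 after LPS, 99.8 and 95.3 after anti-CD36, and 124 and 109 after both. Both LPS libraries stood above all others, a rise of 0.50 ± 0.13 (SE) on the log2(FPKM + 1) scale (limma adjusted p = 0.013). Hexokinases trap glucose as glucose 6-phosphate. Hk2, the inducible form that binds mitochondria, was at 51.1 and 54.9 untreated, 24.9 and 30.9 after LPS, 33.4 and 30.7 after anti-CD36, and 23.5 and 23.3 after both. Every treated library was below both untreated ones, and the fall with LPS was 0.91 on the log2 scale (SE 0.13, limma adjusted p = 0.00089). Hk1, the widely expressed form, was at 66.5 and 71.8 untreated, 49.9 and 54.8 after LPS, 55.0 and 39.2 after anti-CD36, and 46.3 and 41.3 after both. Its treated libraries were also all below the untreated ones, but the LPS difference of -0.40 ± 0.17 was not called (adjusted p = 0.082). Hk3 means ranged only from 19.0 to 23.7.

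Gpi1, which turns glucose 6-phosphate into fructose 6-phosphate, was at 243 and 222 untreated, 129 and 134 after LPS, 259 and 229 after anti-CD36, and 114 and 98.5 after both. The libraries split cleanly by LPS, with every LPS library below every other one. The fall with LPS was 0.82 on the log2 scale (SE 0.14, limma adjusted p = 0.002).

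The 2 largest falls with LPS, those of Pfkm and Pfkl, lay at phosphofructokinase, the committed step that makes fructose 1,6-bisphosphate. Pfkm, the muscle-type subunit, was at 17.5 and 15.3 untreated, 4.56 and 4.88 after LPS, 11 and 13.4 after anti-CD36, and 3.72 and 3.02 after both. Its mean with LPS was 28.9% of the untreated mean, a log2 difference of -1.60 ± 0.14 (limma adjusted p = 9.5e-05). Pfkl, the liver-type subunit, was at 74.3 and 67.3 untreated, 24.0 and 26.7 after LPS, 53.5 and 69.9 after anti-CD36, and 15.8 and 13.2 after both. The groups without LPS overlapped, while the LPS mean was 35.8% of the untreated one (log2 difference -1.45 ± 0.16, limma adjusted p = 0.00027). Pfkp, the platelet-type subunit, was at 63.0 and 67.1 untreated, 47.1 and 52.3 after LPS, 61.9 and 57.4 after anti-CD36, and 31.4 and 28.2 after both. Its fall with LPS was smaller, 0.38 on the log2 scale (SE 0.12, adjusted p = 0.028), and was lost under 7 of 20 alternatives.

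Phosphofructokinase is switched on by fructose 2,6-bisphosphate, whose level the bifunctional PFKFB enzymes set. Pfkfb3, the strongly kinase-biased form, was at 17.3 and 18.3 untreated, 11.8 and 13.3 after LPS, 12.7 and 10.7 after anti-CD36, and 7.54 and 6.38 after both. It fell with each single treatment, and the 2 libraries with both treatments were the lowest of the 8. With LPS it fell by 0.47 on the log2 scale (SE 0.13, adjusted p = 0.018). Pfkfb4 fell by 0.59 (SE 0.13, adjusted p = 0.008), from a mean of 6.61 to 4.06. Pfkfb2 was near the filter, with a mean of 1.37 untreated and 1.03 with LPS, and was not called (adjusted p = 0.12).

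Aldolase splits fructose 1,6-bisphosphate into triose phosphates. Aldoa, the main form, was at 1033 and 927 untreated, 693 and 680.1 after LPS, 847 and 998 after anti-CD36, and 629 and 583 after both. Aldoc was at 62.9 and 62.7 untreated, 26.9 and 27.5 after LPS, 45.2 and 49.3 after anti-CD36, and 19.8 and 19.0 after both. The 4 groups of Aldoc did not overlap. Its fall with LPS, 1.18 on the log2 scale (SE 0.10, limma adjusted p = 9.5e-05), was more than that of Aldoa, 0.51 (SE 0.17, adjusted p = 0.035); the difference between the 2 genes was not tested. Tpi1, triose phosphate isomerase, had means of 733 untreated and 503 with LPS and was not called (adjusted p = 0.066).

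In the payoff phase the enzymes did not move together. Gapdh, which oxidises glyceraldehyde 3-phosphate, had means of 398 untreated and 411 with LPS. Pgk1, the first ATP-making step, was at 1186 and 924 untreated, 1392 and 1381 after LPS, 659 and 1489 after anti-CD36, and 1171 and 1019.9 after both. Both LPS libraries exceeded the untreated ones, but the anti-CD36 libraries alone spanned a wider range, and the difference of 0.41 ± 0.36 was not called (adjusted p = 0.37). Pgam1, phosphoglycerate mutase, was at 901 and 842 untreated, 468 and 486 after LPS, 840.4 and 761 after anti-CD36, and 357 and 312 after both. It split by LPS, with a fall of 0.87 on the log2 scale (SE 0.16, limma adjusted p = 0.0027). Bpgm makes 2,3-bisphosphoglycerate, the side product that primes the mutase. It was low, at 4.64 and 3.84 untreated, 1.83 and 1.96 after LPS, 4.26 and 5.26 after anti-CD36, and 2.84 and 2.43 after both. Its fall with LPS was 0.85 (SE 0.13, adjusted p = 0.0013).

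Enolase forms phosphoenolpyruvate. Eno2, the neuronal form, was at 22.9 and 23.9 untreated, 39.3 and 45.5 after LPS, 14.9 and 20.3 after anti-CD36, and 27.2 and 24.9 after both. The LPS libraries stood above all others, a rise of 0.83 ± 0.16 on the log2 scale (limma adjusted p = 0.0035), while the abundant Eno1 had means of 764 untreated and 628 with LPS and was not called (adjusted p = 0.26).

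Pkm, pyruvate kinase, had the highest mean FPKM over the 8 libraries, though Pgk1 exceeded it in FPKM in all 4 libraries with LPS. It was at 1701 and 1657 untreated, 949 and 941 after LPS, 1522 and 1602 after anti-CD36, and 812 and 742 after both. Every LPS library lay well below every other one, and the LPS mean was 56.3% of the untreated mean (log2 difference -0.83 ± 0.17, limma adjusted p = 0.0046). The table holds 1 value for the gene, so its M1 and M2 splice forms cannot be told apart. Ldha, which makes lactate, was at 1379 and 1233 untreated, 942 and 955 after LPS, 819 and 1528 after anti-CD36, and 721 and 625 after both. The LPS libraries were both below the untreated ones, but the spread between the anti-CD36 libraries was larger than that gap, and the difference of -0.46 ± 0.29 was not called (adjusted p = 0.21). Slc16a3, which encodes the lactate exporter MCT4, had means of 123 untreated and 76.3 with LPS (log2 difference -0.68 ± 0.26, adjusted p = 0.061).

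Among the 7 pentose phosphate genes, 2 fell with LPS, 1 rose and 4 were not called, while 37.5% of all tested genes fell and 17.0% rose. Their median log2 difference of -0.21 was near the -0.19 of all tested genes. G6pdx, glucose 6-phosphate dehydrogenase, the gate of the oxidative branch, was at 106 and 104 untreated, 86.0 and 94.9 after LPS, 131 and 96.2 after anti-CD36, and 113 and 108 after both. The LPS libraries were the lowest of the 8, but the difference of -0.21 ± 0.16 was not called (adjusted p = 0.30). Pgd, the second NADPH-making dehydrogenase, was at 111 and 102 untreated, 51.7 and 55.4 after LPS, 85.0 and 98.6 after anti-CD36, and 63.3 and 60.6 after both. Its mean with LPS was 50.2% of the untreated one (log2 difference -0.98 ± 0.12, limma adjusted p = 0.00052). Pgls, the lactonase between them, had means of 32.5 untreated and 29.1 with LPS. On the size-factor scale the differences of G6pdx, Pgls and Taldo1 lay above 0 and were not called either.

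In the non-oxidative branch, Tkt, transketolase, was at 111 and 106 untreated, 59.2 and 57.3 after LPS, 92.8 and 90.5 after anti-CD36, and 60.0 and 54.4 after both. Its mean with LPS was 53.5% of the untreated one (log2 difference -0.89 ± 0.11, limma adjusted p = 0.00049). Its partner Taldo1, transaldolase, was at 120.1 and 88.6 untreated, 90.2 and 88.3 after LPS, 76.0 and 152 after anti-CD36, and 106 and 93.6 after both. These groups overlapped, and no difference was called. Rpe, the ribulose phosphate epimerase, rose by 0.52 ± 0.12 (adjusted p = 0.0094), from a mean of 17.8 to 25.9. Rpia, the isomerase that makes ribose 5-phosphate, had means of 8.87 untreated and 6.71 with LPS and was not called.

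Phosphoglucomutases connect glucose 6-phosphate with glucose 1-phosphate and so with glycogen. Pgm1 (chr4:99929414-99987294, plus strand, GRCm38) was at 76.5 and 73.3 untreated, 35.2 and 42.3 after LPS, 68.2 and 79.0 after anti-CD36, and 20.1 and 18.6 after both. The untreated and anti-CD36 libraries overlapped, the LPS libraries were lower and the libraries with both were lower again. The fall with LPS was 0.94 on the log2 scale (SE 0.13, limma adjusted p = 0.00088). Pgm2 (chr5:64092950-64128351, plus strand) had means of 20.1 untreated and 23.3 with LPS and was called only on the size-factor scale. Mouse symbols of these 2 genes have been exchanged in the past; the length the authors divided by, recovered from the values, was 2921 bases for Pgm1 and 2590 for Pgm2, equal to the GENCODE M21 exon lengths of the genes at these positions.

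**Figure D3:**
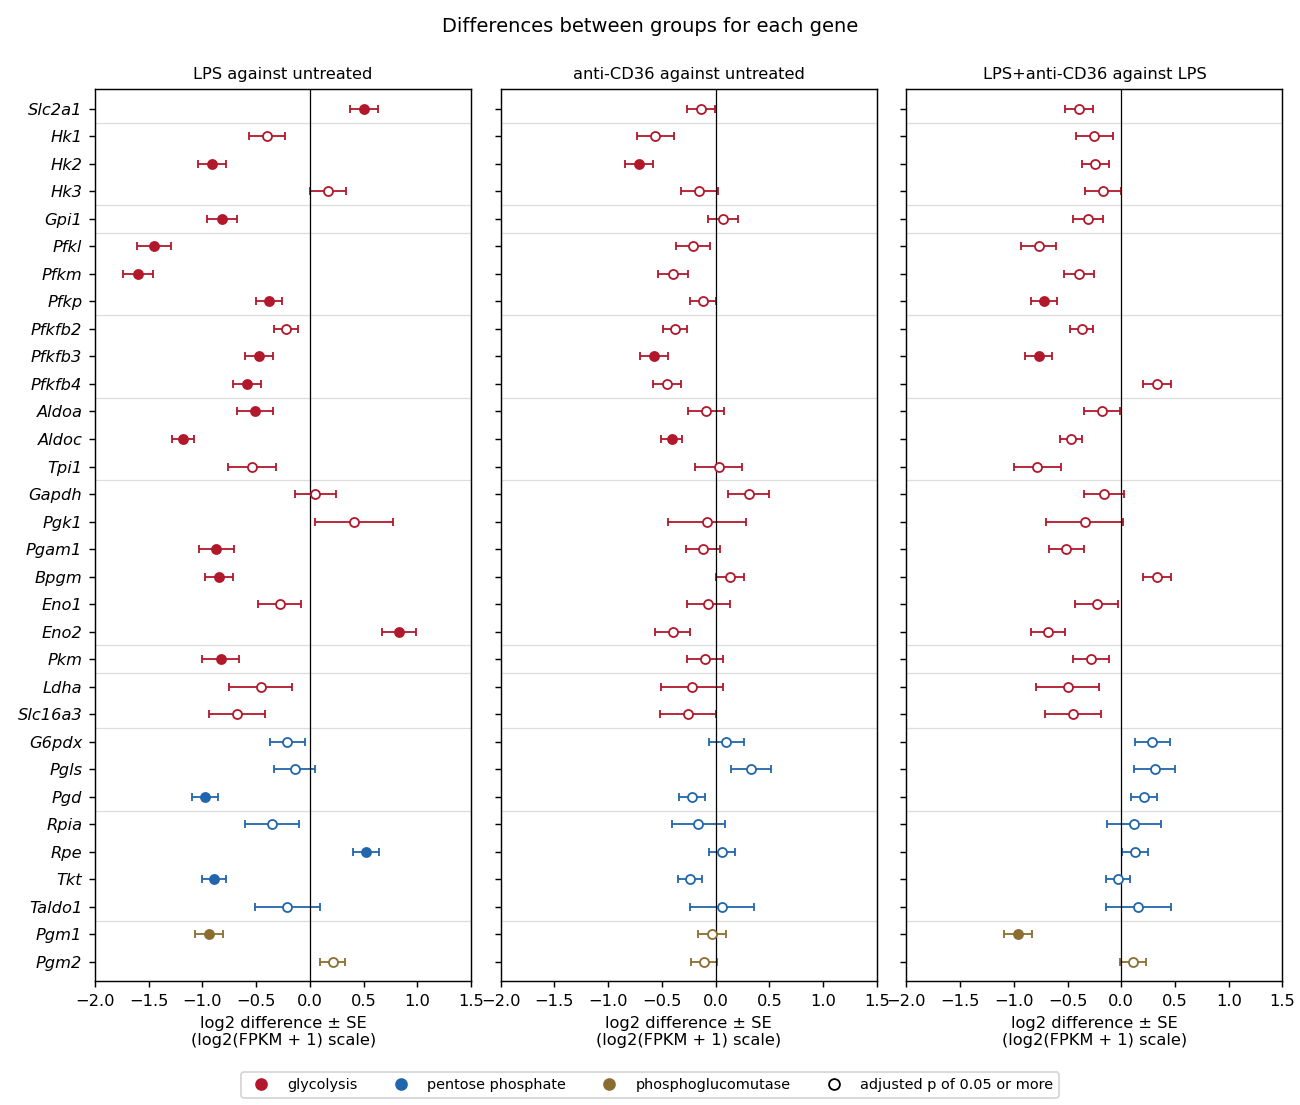
log2 difference (x axis, on the log2(FPKM + 1) scale) ± SE for the 32 genes in 3 comparisons, with filled points at an adjusted p under 0.05. With LPS, 15 points are filled to the left of 0 and 3 to the right; for LPS+anti-CD36 against LPS nearly all glycolysis points (red) lie left of 0 and nearly all pentose phosphate points (blue) right of it.

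The antibodies alone had smaller differences from untreated cells. Hk2, Pfkfb3 and Aldoc fell, by 0.71 (SE 0.13, limma adjusted p = 0.019), 0.57 (SE 0.13, adjusted p = 0.033) and 0.41 (SE 0.10, adjusted p = 0.042) on the log2 scale, and no member rose; 10.6% of all tested genes fell and 3.04% rose. In the library values given above, all 3 genes had both anti-CD36 libraries below both untreated ones. Both anti-CD36 libraries were below both untreated ones in 14 members and above them in 1, Gapdh, beside 35.9% and 16.7% of all tested genes. The median of the members was -0.13, against -0.08 over all genes. The calls were not stable, and none of the 3 held under every alternative. Hk2 was lost under 4 of 20 alternatives, Pfkfb3 under 11 and Aldoc under 9. Leaving out untreated replicate 1, untreated replicate 2 or LPS+anti-CD36 replicate 1 lost all 3. With the 2 groups fitted alone there were 0 calls (limma, 6 at an unadjusted p under 0.05, beside 2045 of the 10289 tested genes). With voom on the recovered reads there were 6, beside 21.1% of all genes. On the size-factor scale 1 member fell and 0 rose, with 5.78% of all genes lower and 4.1% higher. The difference fell with transcript length over all tested genes (Spearman rho -0.443) and over the members (-0.441). After removal of that trend 2 members fell and 0 rose, beside 774 of the 10289 tested genes called. The part of length in these differences was not tested.

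The 2 anti-CD36 libraries also stood apart from each other. The second held 2.26 times the first for Pgk1, 1.87 times for Ldha, 1.80 times for Slc16a3, 2.0 times for Taldo1 and 1.9 times for Rpia, a ratio above 1.5 in 5 members. In contrast, Slc2a1, Rpe, Tkt and Pkm differed by at most 1.05 times. Without the first library, the one rich in mitochondrial transcripts, 6 members were called, beside 36.3% of all tested genes: Hk1, Hk2, Pfkfb3 and Aldoc lower, Pgls and Taldo1 higher. Without the second, 12 were called, beside 27.4% of all genes, all lower, among them Ldha (-0.67, adjusted p = 0.021) and Slc16a3 (-0.68, adjusted p = 0.017). Hk2, Pfkfb3 and Aldoc were lower in both cases; each such fit assumes that the lone library varies like the other groups. The mitochondrial share moves with this split, and its part in it was not tested.

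Adding the antibodies to LPS was set against LPS alone. Pgm1, Pfkfb3 and Pfkp fell further (limma, adjusted p under 0.05), and no member rose, while 1.42% of all tested genes fell and 0.36% rose. The library values above show each of these genes lowest in the 2 libraries with both treatments. Pgm1 fell by 0.96 on the log2 scale (SE 0.13, limma adjusted p = 0.024), to 49.9% of the LPS mean. Pfkfb3 (chr2:11471433-11554077, minus strand) fell by 0.77 (SE 0.13, adjusted p = 0.04), to 55.4%. Pfkp (chr13:6579768-6648777, minus strand) fell by 0.72 (SE 0.12, adjusted p = 0.038), to 59.9%. Pfkl (-0.77 ± 0.16, adjusted p = 0.062), Tpi1 (-0.78 ± 0.22, adjusted p = 0.11), Eno2 (-0.68 ± 0.16, adjusted p = 0.078) and Aldoc (-0.47 ± 0.10, adjusted p = 0.069) had differences of like or smaller size that were not called. At an unadjusted p under 0.05 (limma), 13 members differed, beside 2005 of the 10289 tested genes.

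The listed members of the 2 pathways lay on different sides of LPS alone. In glycolysis, 21 of 23 genes had both LPS+anti-CD36 libraries below both LPS libraries, and the other 2, Pfkfb4 and Bpgm, had both above. In the pentose phosphate pathway, 5 of 7 had both above, G6pdx, Pgls, Pgd, Rpe and Taldo1, and 0 had both below. Over all tested genes 35.6% were lower and 28.5% higher without overlap. The median difference was -0.37 for the glycolysis members and 0.16 for the pentose phosphate members, beside -0.02 for all genes. Genes outside the members, described below, did not all follow. The 15 tested transporters and isozymes had a median of -0.02, with 4 higher and 5 lower without overlap. The 9 tested pentose and ribose genes had a median of 0.09, with 3 higher and 1 lower. Under all 20 alternatives, 1 or 2 of the tested glycolysis genes and 6 or 7 pentose phosphate genes had a positive difference. In genes whose groups do not overlap, only alternatives that rescale the libraries could change the sign. Most of the 20 therefore could not alter it. None of the 7 pentose phosphate differences was itself called, and the difference between the pathways was not tested.

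How many members were called here differed between the alternatives. With only the LPS and LPS+anti-CD36 libraries in the fit, 18 members were called, beside 22.4% of all tested genes, 14 lower and 4 higher; the 4 were Bpgm, Pfkfb4, Pgls and G6pdx. Without anti-CD36 replicate 1 or replicate 2 there were 10 and 11 calls, all lower, beside 13.9% of all genes called in each fit. Of the 3 calls, Pgm1 was lost under 7 of 20 alternatives, Pfkp under 10 and Pfkfb3 under 11. Leaving out any 1 library of the untreated, LPS or LPS+anti-CD36 groups lost all 3. With the replicate number as a block there were 0 calls (limma, 11 at an unadjusted p under 0.05, beside 1912 of the 10289 tested genes). With voom on the recovered reads there were 6 (4.38% of all genes), and after removal of a trend with transcript length only Pgm1 remained called. Over all tested genes the difference fell with length (Spearman rho -0.477), while over the 32 members rho was -0.0623. The part of length in these calls was not tested. The sizes moved less: over the alternatives the log2 difference ran from -1.09 to -0.83 for Pgm1, from -0.94 to -0.56 for Pfkfb3 and from -0.82 to -0.44 for Pfkp.

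Within enzyme families the share of each isozyme differed between groups. Shares of the summed FPKM of a family were formed as descriptions with no test. The lengths divided by differ within families, from 3340 bases for Pfkm to 13401 for Pfkp. Which form holds the larger share thus depends on annotated length. In the first untreated library Pfkp had 46969 reads and Pfkl 27624, but their shares were 40.7% and 48.0%. Pgm1 made up 78.8% ± 0.912 (SD, n = 2) of the phosphoglucomutase FPKM in untreated cells, 79.7% ± 4.04 with anti-CD36, 62.3% ± 2.87 with LPS and 43.4% ± 2.85 with both, so that Pgm2 was the larger form only in the libraries with both. Among phosphofructokinases, Pfkp made up 42.8% ± 2.93 untreated and 44.9% ± 5.79 with anti-CD36, but 62.3% ± 0.0225 with LPS and 62.6% ± 1.24 with both. Pfkl held 46.5% ± 2.16 untreated and 31.8% ± 0.126 with LPS. The shares after LPS and after both lay close together, although all 3 subunits had lower means after both.

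Among the fructose 2,6-bisphosphate enzymes the shares stood apart in the combination. Pfkfb3 made up 69.1% ± 2.26 of their FPKM in untreated cells, 71.1% ± 1.1 after LPS, 68.2% ± 7.42 after anti-CD36 and 53.9% ± 2.58 after both. Pfkfb4 held 25.6% ± 2.06, 23.0% ± 0.66 and 27.0% ± 6.04 in the first 3 of these groups and 41.7% ± 2.96 after both. Among hexokinases, Hk2 went from 37.0% ± 0.6 untreated to 26.8% ± 1.5 with LPS, Hk3 from 14.6% ± 1.56 to 22.8% ± 0.0134, and Hk1 kept near 50.4% ± 1.52. Eno2 stayed a minor enolase, at 2.99% ± 0.399 untreated and 6.33% ± 0.664 with LPS, and Aldoc a minor aldolase, at 6.04% ± 0.424 and 3.81% ± 0.102.

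**Figure D4:**
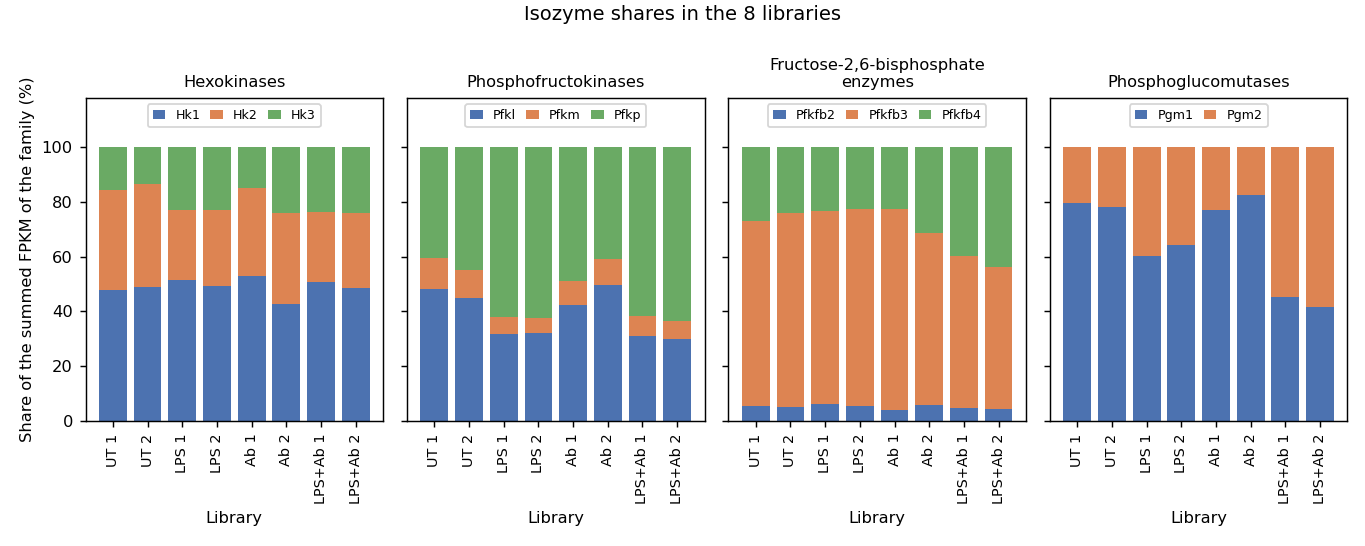
Share (%) of each isozyme in the summed FPKM of 4 enzyme families, as 1 stacked bar per library (UT, untreated; Ab, anti-CD36). Pgm1 goes from 79.5% and 78.2% in the untreated bars to 45.4% and 41.4% in the bars with both treatments. Pfkp has the largest FPKM share of the phosphofructokinases in all 4 bars with LPS.

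The combination was farther from untreated cells than LPS was in most glycolytic genes. Of the 32 members, 19 fell and 1, Rpe, rose, while 41.8% of all tested genes fell and 17.3% rose. In glycolysis 16 of 23 fell, with a median of -0.96, and in the pentose phosphate pathway 2 of 7, Pgd and Tkt, with a median of -0.05; the median over all genes was -0.23. Pfkl was at 20.4% of the untreated mean, Pfkm at 20.6% and Pgm1 at 25.8% (log2 differences -2.22 ± 0.16, -1.99 ± 0.14 and -1.90 ± 0.13; limma adjusted p = 3.3e-05, 2.8e-05 and 2.9e-05). Ldha and Slc16a3, not called with LPS alone, fell by 0.96 (SE 0.29, adjusted p = 0.023) and 1.12 (SE 0.26, adjusted p = 0.0079), and Hk1, Tpi1 and Pfkfb2 were also added. None of these genes was called in LPS+anti-CD36 against LPS. Of the 20 calls against untreated, 13 held under every alternative. Ldha was lost under 5 of 20 alternatives, Hk1 under 4 and Slc16a3 under 1, and Pfkfb2, Bpgm, Aldoa and Rpe were also lost under some. Slc2a1 and Eno2, which rose with LPS alone, were not called (0.11 ± 0.13 and 0.15 ± 0.16), and were among 4 genes called higher on the size-factor scale, where 15 were lower (28.3% of all genes higher and 28.7% lower). The members' summed share was 1.61% ± 0.096 (SD, n = 2) with both and 2.71% ± 0.472 with anti-CD36. Both LPS comparisons share the untreated libraries.

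Whether the antibodies acted differently with and without LPS was tested as an interaction. No member passed it with limma (7 at an unadjusted p under 0.05) or with voom on the recovered reads (5), nor did any tested gene but 1 (0.00972% of the tested genes). Among all 10289 tested genes, 1396 with limma and 1235 with voom had an unadjusted p under 0.05. The lowest adjusted p among the members was 0.21, for Pgm1 (-0.93 ± 0.19), followed by Pfkfb4 (0.78 ± 0.19, adjusted p = 0.27) and Pfkp (-0.60 ± 0.17, adjusted p = 0.28). Pgm1 differed by -0.03 between anti-CD36 and untreated cells and by -0.96 between LPS+anti-CD36 and LPS. Pfkfb4 differed by -0.45 and 0.33 in the same comparisons. Without anti-CD36 replicate 1, with 5.98% of all tested genes called, the interaction passed for Pgm1 (-1.04, adjusted p = 0.03), Tpi1 (-1.1, adjusted p = 0.032) and Pfkl (-0.75, adjusted p = 0.045), and without replicate 2, with 2.3% called, for Pgm1 (-0.83, adjusted p = 0.049) and Pfkfb4 (0.96, adjusted p = 0.039).

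Other genes around these pathways were read from lists, also chosen with earlier results of these data known. Among transporters and isozymes outside the members, 15 of 21 were tested; with LPS 0 rose and 7 fell, beside 17.0% and 37.5% of all tested genes, and their median of -0.20 was near the -0.19 of all genes. Pgam2 (-1.21), Eno3 (-1.14), Slc2a8 (-1.01) and Slc2a3 (-0.56), the last encoding the carrier GLUT3, had the largest log2 differences. Slc2a3 also fell with anti-CD36 (-0.66, limma adjusted p = 0.041). Of 9 tested genes of pentose and ribose metabolism, H6pd, the dehydrogenase that makes NADPH in the endoplasmic reticulum, fell (-1.45, adjusted p = 5e-05) and so did Prps2 (-0.87), which makes the nucleotide precursor PRPP. Shpk, sedoheptulokinase, rose (0.44). The median of these 9 was -0.16.

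Of 26 listed genes of glycogen, fructose, mannose and gluconeogenesis, 19 were tested. With LPS 12 fell and 0 rose, beside the 37.5% and 17.0% of all genes, with a median of -0.73. Pcx, pyruvate carboxylase, had the largest difference (-1.62), then the glycogen synthase gene Gys1 (-1.32), the phosphorylase kinase subunit Phka2 (-1.28) and the glycogen branching enzyme Gbe1 (-1.27). Gbe1 fell again when the antibodies were added to LPS, from a mean of 5.41 to 2.41 (-0.91, limma adjusted p = 0.025). Gys1 went from 18.6 to 10.1 in the same comparison and was not called (-0.82, adjusted p = 0.066).

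Of 18 listed genes known as induced by hypoxia outside glycolysis, 17 were tested. As this list too was chosen with earlier results known, its counts are descriptions. With LPS 10 fell and 1, Car9, rose, with a median of -1.01, beside 37.5% and 17.0% of all genes and a median of -0.19. Against LPS alone, 8 fell with both and 0 rose, with a median of -0.80, beside 1.42% and 0.36% of all genes and a median of -0.02. The largest were Ndrg1 (-1.49, limma adjusted p = 0.012; mean 16.5 with LPS and 5.26 with both), the mitophagy receptors Bnip3 (-1.37; 39.1 and 14.3) and Bnip3l (-1.26; 21.6 and 8.41), and the oxidoreductase Ero1a (-1.28; 110.4 and 44.6). Leaving out either LPS library or either LPS+anti-CD36 library left 0 of the 8 calls, while leaving out an anti-CD36 library gave 11. In 14 or more of the 17 the difference was negative under every alternative. In 14 of the 17 the groups did not overlap, so there only alternatives that rescale the libraries could change the sign.

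Of 16 tested regulators of glucose genes, 3 rose with LPS and 8 fell, beside 17.0% and 37.5% of all genes, with a median of -0.37. Hif1a, the regulated subunit of HIF-1, rose (1.02, from a mean of 36.0 to 73.7; limma adjusted p = 0.0015), and Egln1 and Egln3, the prolyl hydroxylases that mark it for destruction and are themselves known HIF targets, fell (-2.02 and -1.19). Myc rose from a mean of 0.102 to 4.81 and Mycn fell from 398 to 81.2 (log2 differences 2.38 and -2.28). Myc was the regulator called when the antibodies were added to LPS, at a mean of 2.14 (-0.87, adjusted p = 0.049). Transcript levels say nothing of the amount or activity of these proteins.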

How the data were processed

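RNA of 8 RAW264.7 libraries was sequenced; groups follow the labels. A single table of FPKM values was deposited by the authors. Per the submitters' processing notes HISAT2 2.0.5 was used, with mm10 and hg38 named as builds; the counter, annotation, strand use and role of hg38 are not given in the sources used here. Per the labels' protocols, Trizol RNA went into standard Illumina libraries; the labels also name 10x Genomics, but each gene has 1 value a library.

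Genes that reached FPKM 1 in 2 or more libraries entered limma 3.58.1 (R 4.3.3) on log2(FPKM + 1): 4 group means over all 8 libraries, empirical Bayes with a trend, 4 residual and 3.46 prior degrees of freedom, Benjamini-Hochberg adjustment. This scale understates changes of low genes. No gene in the table is at 0. FPKM is relative to the whole library, so a few abundant genes can shift all others. The steps of the deposited FPKM values gave back whole reads (97.25% to 97.82% of single-exon genes within 0.02), and the length used equalled the GENCODE M21 union exon length for all 32 members. Near copies were sought with BLAST+ 2.17.0. The procedure was tested on simulated data.

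The members and lists were chosen with earlier results of these data known. Every member is named; library values are given for members called in 3 comparisons within the 12, 4 and 10 largest differences, and for the most abundant member of each step. From each other list, up to 4 called genes of largest difference are named per comparison. Alternatives covered the pseudocount, the filter, scaling, mitochondrial genes, transcript length, the spread, the replicate block and each library left out.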

Additional observations from a re-analysis of the deposited data

How the results depend on the processing

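The counts of members called with LPS (18) and with both treatments against untreated (20) stayed within 1.5 times under every alternative; leaving out 1 library gave 12 to 24 and 15 to 23. Against untreated, anti-CD36 gave 3 calls and, with 1 library left out, 0 to 12 (all lower but 2 of the 6 without anti-CD36 replicate 1). Its count was 1 with size factors, 6 without mitochondrial genes, 0 with only the groups compared and 6 with voom on recovered reads, an alternative chosen after seeing the data. Over all tested genes the counts in the same order were 1017, 1425, 0 and 2169. LPS+anti-CD36 against LPS gave 3 and, with 1 library left out, 0 to 11; it gave 1 with the length trend removed, 18 with only the groups compared and 6 with voom. The interaction gave 0, and 0 to 3 with 1 library left out. Over all tested genes, LPS+anti-CD36 against LPS gave 126 calls with the length trend removed, 2307 with only the groups compared and 451 with voom. The cause of these shifts was not tested.

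With the replicate number as a block, 16, 1, 20, 0 and 0 members were called in the 5 comparisons, in the order LPS, anti-CD36 and both against untreated, both against LPS, and the interaction. Over all 10289 tested genes the counts in the same order were 5298, 863, 5802, 46 and 1. The libraries share only a number: deviations of same-numbered libraries correlated from -0.645 to 0.53 between groups.

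Leaving out mitochondrial genes moved the members' summed share to 3.41% untreated and 2.23% with LPS, that of glycolysis to 3.2% and 2.1%, and that of the pentose phosphate genes to 0.178%, 0.112%, 0.165% with anti-CD36 and 0.12% with both. With 2 libraries a group, their number limits the precision.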
